A study of Mus musculus with 9 samples.

Results

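The transcripts described here belong to 8 genes that handle hydroxy acids and ketone bodies, out of 16344 genes in the deposited table: Ldhb, Ldhd, D2hgdh, Bdh1, Oxct1, Acat1, Hadh and Slc16a1. They were picked by gene symbol for their known roles, with earlier results of these data known, and all 8 were found in the table. Messenger RNA was measured in activated CD8 T cells, the cytotoxic arm of adaptive immunity, from spleen and lymph nodes of wild-type mice. About 100000 cells per sample were stimulated through CD3 and CD28 and kept overnight in DAHB with 10 nM oligomycin (the DAHB+O group), in 20 mM DAHB (DAHB), or in 20 mM NaCl, the control (NaCl). Oligomycin blocks the mitochondrial ATP synthase. Each group had 3 libraries, and all 9 carried the same batch label. What DAHB abbreviates is not spelled out in the labels, which also give no DAHB dose beside oligomycin, and cells given oligomycin alone were not analysed here. Since no source says that replicate libraries stem from separate animals or cultures, p-values reflect the spread of these samples alone, possibly a technical one.

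Hydroxy acids and ketone bodies are small fuels that cells can exchange and oxidise. Monocarboxylate carriers bring lactate and 3-hydroxybutyrate across the plasma membrane, dehydrogenases oxidise them to the matching keto acids, and ketolysis in mitochondria turns acetoacetate into acetyl-CoA for the citric acid cycle. Activated T cells are known for rapid glycolysis and lactate release, which rests mainly on the A subunit of lactate dehydrogenase, and they can also take up and oxidise lactate and ketone bodies.

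The proximal promoters of 3 members are shown: those of Ldhb and Ldhd, the largest rises among the 8 in DAHB against NaCl, and that of Slc16a1, the carrier, which was lower in DAHB than in both other groups. Each window holds the 250 bases before the RefSeq transcript start on build GRCm38.p6, written 5′ to 3′ on the gene's strand. The windows are chr6:142507958-142508207 on the minus strand for Ldhb, chr8:111630337-111630586 on the minus strand for Ldhd, and chr3:104638414-104638663 on the plus strand for Slc16a1. Capitals mark CACGTG as an E-box, CCAAT in either orientation as a CCAAT box, and GGGCGG in either orientation as a GC box.
Ldhb: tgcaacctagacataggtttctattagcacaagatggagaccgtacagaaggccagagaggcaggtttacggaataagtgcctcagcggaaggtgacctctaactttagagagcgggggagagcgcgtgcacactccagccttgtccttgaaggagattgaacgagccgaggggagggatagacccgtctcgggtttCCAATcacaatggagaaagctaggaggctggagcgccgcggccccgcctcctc
Ldhd: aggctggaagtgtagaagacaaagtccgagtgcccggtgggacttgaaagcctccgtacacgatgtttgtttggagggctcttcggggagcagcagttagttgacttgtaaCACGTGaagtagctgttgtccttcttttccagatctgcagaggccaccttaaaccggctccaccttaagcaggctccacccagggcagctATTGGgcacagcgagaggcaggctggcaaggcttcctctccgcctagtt
Slc16a1: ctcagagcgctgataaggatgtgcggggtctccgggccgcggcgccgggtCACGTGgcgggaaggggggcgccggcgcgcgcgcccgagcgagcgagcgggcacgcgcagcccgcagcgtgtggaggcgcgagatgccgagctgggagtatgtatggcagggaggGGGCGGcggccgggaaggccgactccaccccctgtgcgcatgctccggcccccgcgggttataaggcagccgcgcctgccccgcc

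The E-box letters lay 139 to 134 bases before the Ldhd start and 200 to 195 bases before the Slc16a1 start. Among the 7 members with a RefSeq window, these were the only 2 with a CACGTG, which 6.02% of 32851 mouse promoter windows of the same length held. A CCAAT box stood 53 to 49 bases before the Ldhb start and 49 to 45 bases before the Ldhd start, in opposite orientations, and 33.8% of all windows held one. The GC box of Slc16a1 lay 85 to 80 bases before its start, against 32.7% of all windows with such a box. D2hgdh had 2 GC boxes, and Hadh had 2 GC boxes and a CCAAT box 239 to 235 bases before its start. The Bdh1 windows at 2 alternative starts and the Oxct1 window held none of the motifs searched. No matches overlapped. The other letters searched on both strands were TGACGTCA (1.55% of windows), TCAAGGTCA (0.387%), and TGATGNAA (3.45%), and the NRF1 site was searched too (3.74%); none of these was found in a member's window. GC content was 76.4% for Slc16a1, 56.4% for Ldhb and 55.2% for Ldhd, with a median of 52.4% over all windows. These letters describe the windows and were not tested against expression.

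The libraries held 28146402 to 36680103 reads in DAHB+O, 32738726 to 36088702 in DAHB and 33811363 to 39207045 in NaCl, as recovered from the deposited values. Those values are reads per gene over a library's size factor and are called normalized counts. Libraries of the same group correlated at Pearson r of 0.994 to 0.996 across genes, which are not independent replicates. All 10 genes of the CD8 T cell marker list were present. Their summed level was 86043 to 91370 normalized counts in DAHB+O, 120825 to 125680 in DAHB and 111408 to 117020 in NaCl. In DAHB+O 0 were higher and 9 lower against either other group, and in DAHB 4 were higher and 4 lower against NaCl. These counts stand beside the shares of all tested genes given in the next paragraph. Cd8a itself averaged 16415 ± 220.2 in DAHB+O, 22083 ± 762 in DAHB and 16906 ± 320.3 in NaCl (SD, n = 3 each). Genes listed as markers of other cells moved between groups too. The 7 of 8 B cell markers in the table summed to 2024 to 2207 normalized counts in DAHB+O, 2729 to 2919.8 in DAHB and 7639.7 to 8187 in NaCl. Ighm made up most of that sum, with 1636 in DAHB+O, 2109 in DAHB and 7254 in NaCl on average, while Cd79b was higher in DAHB than in NaCl, with 579 in DAHB and 426 in NaCl, and Ms4a1 and Blk did not pass. The 8 of 10 dendritic cell markers summed to 10195 to 10481 in DAHB+O, 11915 to 12894 in DAHB and 7270.5 to 7652 in NaCl. MHC class II genes and their invariant chain made up most of that sum. Against NaCl, 7 of the 8 were higher and 1 lower in DAHB, and 5 were higher and 2 lower in DAHB+O. Xcr1 was lower in both, with 3.95 in DAHB+O, 24.4 in DAHB and 56.0 in NaCl. The 7 of 8 monocyte and macrophage markers summed to 814 to 933 in DAHB+O, 1045 to 1256 in DAHB and 506 to 586 in NaCl. Cd68 carried that sum, with 602 in DAHB+O, 1037 in DAHB and 321 in NaCl, and of the 6 tested 3 were higher and 3 lower in DAHB against NaCl, with Lyz2, Csf1r and Cd14 lower. The 2 of 6 neutrophil markers in the table summed to 3.78 to 8.93 in DAHB+O, 30.8 to 98.0 in DAHB and 4.14 to 17.7 in NaCl. The 5 of 6 NK cell markers summed to 5028 to 5315 in DAHB+O, 7279.7 to 7842 in DAHB and 3696 to 3864 in NaCl. Klrk1 and Eomes made up most of it and were higher in DAHB than in NaCl, while Klra4 was lower and Klrb1c did not pass. The 4 of 4 CD4 T cell markers summed to 3196 to 3341 in DAHB+O, 2207 to 2280.4 in DAHB and 1329 to 1479 in NaCl. Cd4 itself was a small part of that sum, with 231 in DAHB+O, 216 in DAHB and 168 in NaCl on average. Foxp3 went the other way, with 2.99 in DAHB+O, 4.97 in DAHB and 6.60 in NaCl, and was too low to test. The 3 of 7 erythroid and platelet markers summed to 25 to 32.3 in DAHB+O, 40.8 to 62.9 in DAHB and 59.8 to 67.8 in NaCl, and the 4 of 6 stromal and endothelial markers to 1785 to 1958 in DAHB+O, 1901 to 2100.2 in DAHB and 1210.0 to 1321 in NaCl. The defining markers Pax5, Clec9a, Siglech, S100a8, S100a9 and Hbb-bs were not among the rows analysed here. Whether these listed transcripts came from other cells or from the CD8 T cells themselves was not tested. The part of any other cells in the members' differences was not tested either. In bulk RNA fewer cells of a type cannot be told apart from less RNA per cell.

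Against NaCl, all 8 members differed in DAHB. Ldhb, Ldhd, Acat1 and Hadh were higher, and Bdh1, Oxct1, D2hgdh and Slc16a1 were lower, in limma at a Benjamini-Hochberg adjusted p under 0.05. Limma fits a linear model to each gene and shares information on the variance across genes. Testing covered 14169 genes that averaged 10 or more normalized counts. In that comparison 73.9% of them were called, 35.5% higher and 38.4% lower, and the groups of 75.6% did not overlap. A count of 8 of 8 therefore stands against a background in which most genes were called, and the 8 members had a median log2 difference of -0.01 beside -0.02 over all tested genes. Adding oligomycin moved fewer members: Ldhb, Oxct1 and Slc16a1 were higher in DAHB+O than in DAHB, and 0 were lower in limma, also at an unadjusted p under 0.05 and by edgeR, DESeq2 and limma-voom. In that comparison 62.6% of all tested genes were called, 33.1% higher and 29.5% lower, and 67.6% did not overlap. Against NaCl, DAHB+O had Ldhb, Ldhd, Acat1 and Hadh higher and Bdh1, Oxct1 and D2hgdh lower, while Slc16a1 did not pass. This stands beside 74.2% of all tested genes called, 36.5% higher and 37.7% lower, and 78.7% without overlap. The 3 comparisons share libraries in pairs, so their values are given side by side and not as independent support.

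**Figure D1:**
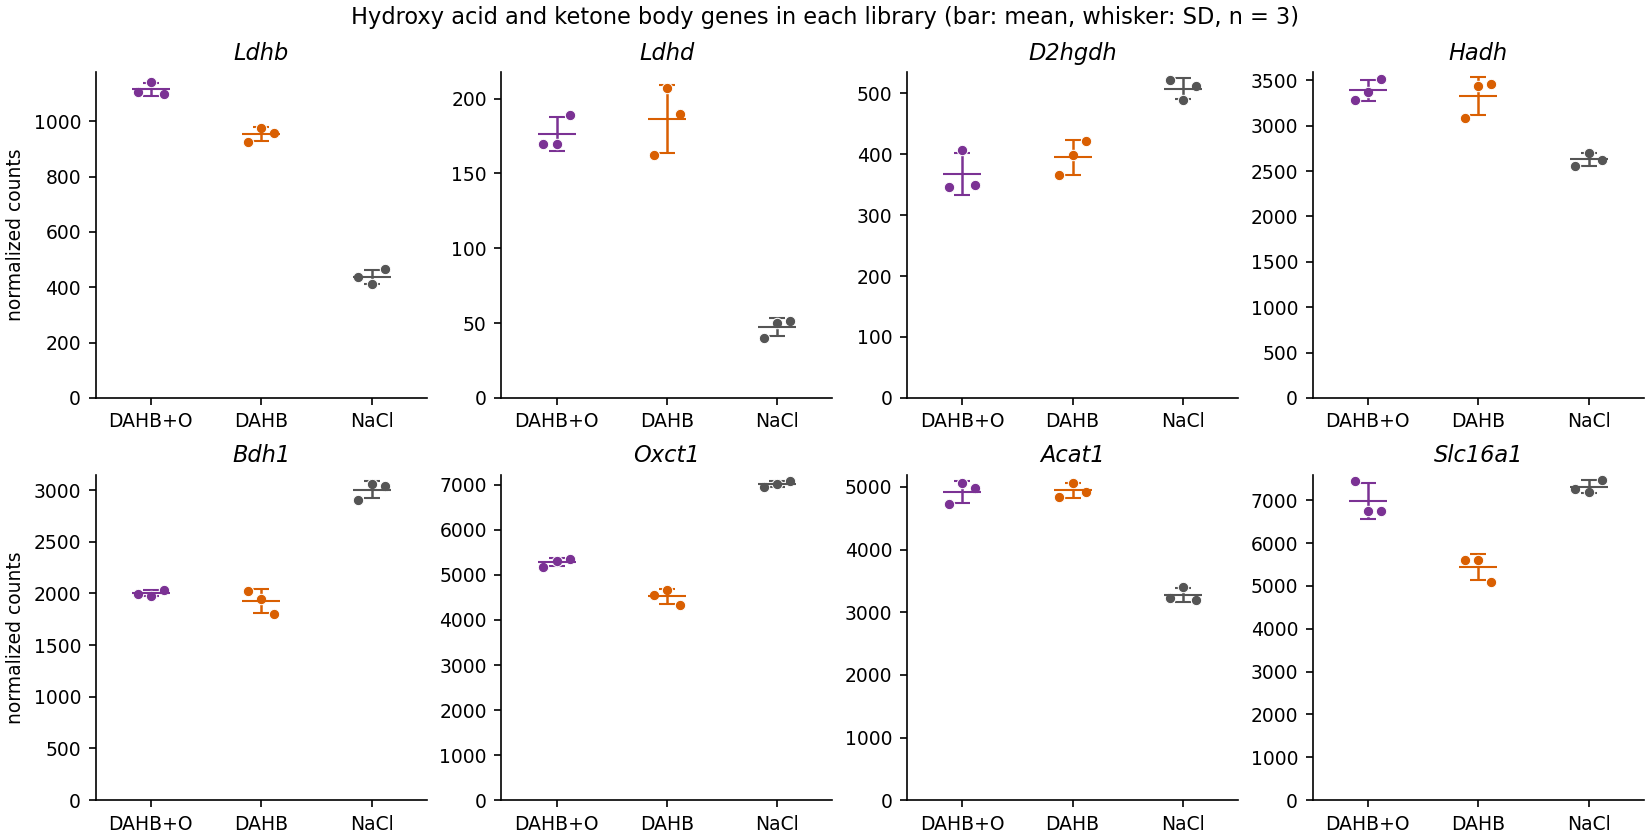
Normalized counts of the 8 genes in each of the 9 libraries, 1 panel per gene with its own axis from 0, DAHB+O left, DAHB in the middle and NaCl right; points are libraries, bars the mean and whiskers the SD (n = 3). Ldhb and Ldhd sat at 925 to 1141 and 162 to 207 in the 6 libraries with DAHB, against 412 to 465 and 40.3 to 51.6 in NaCl, and Slc16a1 was lowest in DAHB.

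Ldhb, the B subunit of lactate dehydrogenase, which favours the oxidation of lactate to pyruvate, lies at chr6:142490249-142507957 on the minus strand (GENCODE vM21, mm10). Its normalized counts were 1105, 1141 and 1099.7 in the DAHB+O libraries, 925, 976 and 956 in the DAHB libraries and 436, 412 and 465 in the NaCl libraries. The 3 groups did not overlap, and every library with oligomycin stood above every library with DAHB alone. Ldhb was 2.18-fold higher in DAHB than in NaCl, a log2 difference of 1.12 with a 95% interval of 1.00 to 1.24 (limma, adjusted p = 1.20e-10). In DAHB+O it was a further 1.17-fold above DAHB, with a log2 difference of 0.23 and an interval of 0.11 to 0.35 (limma, adjusted p = 0.00251). Between 419 and 1232 reads lay behind each value. All folds here are on the log2(normalized count + 1) scale, which understates the change of low genes.

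The partner subunit Ldha, which favours the reduction of pyruvate to lactate, moved differently. It had 94415, 99985 and 103356 normalized counts in the DAHB+O libraries, 171585, 176864 and 163488 in the DAHB libraries and 160101, 163956 and 163542 in the NaCl libraries. DAHB and NaCl overlapped, and the log2 difference of 0.07 between them did not pass in limma (adjusted p = 0.202), although limma-voom, edgeR and quantile-normalized values called it higher. Ldha was 1.72-fold lower in DAHB+O than in DAHB (log2 -0.78, limma, adjusted p = 2.78e-09).

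The subunits form mixed tetramers, so their balance was also read as Ldhb's share of the sum of Ldha and Ldhb per kb of exon. The share was 2.41%, 2.35% and 2.19% in the DAHB+O libraries, 1.12%, 1.15% and 1.22% in the DAHB libraries and 0.571%, 0.527% and 0.596% in the NaCl libraries. The groups did not overlap. Means were 2.32% ± 0.111 in DAHB+O, 1.16% ± 0.0485 in DAHB and 0.565% ± 0.0349 in NaCl (SD, n = 3 each), so DAHB was 2.06 times NaCl and DAHB+O was 1.99 times DAHB. Each difference had an exact two-sided permutation p of 0.1, the smallest that 3 libraries against 3 allow. Without the division by length the shares were 1.11% ± 0.0538 in DAHB+O, 0.556% ± 0.0233 in DAHB and 0.269% ± 0.0166 in NaCl. In all 9 libraries Ldha made up nearly the whole sum.

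**Figure D2:**
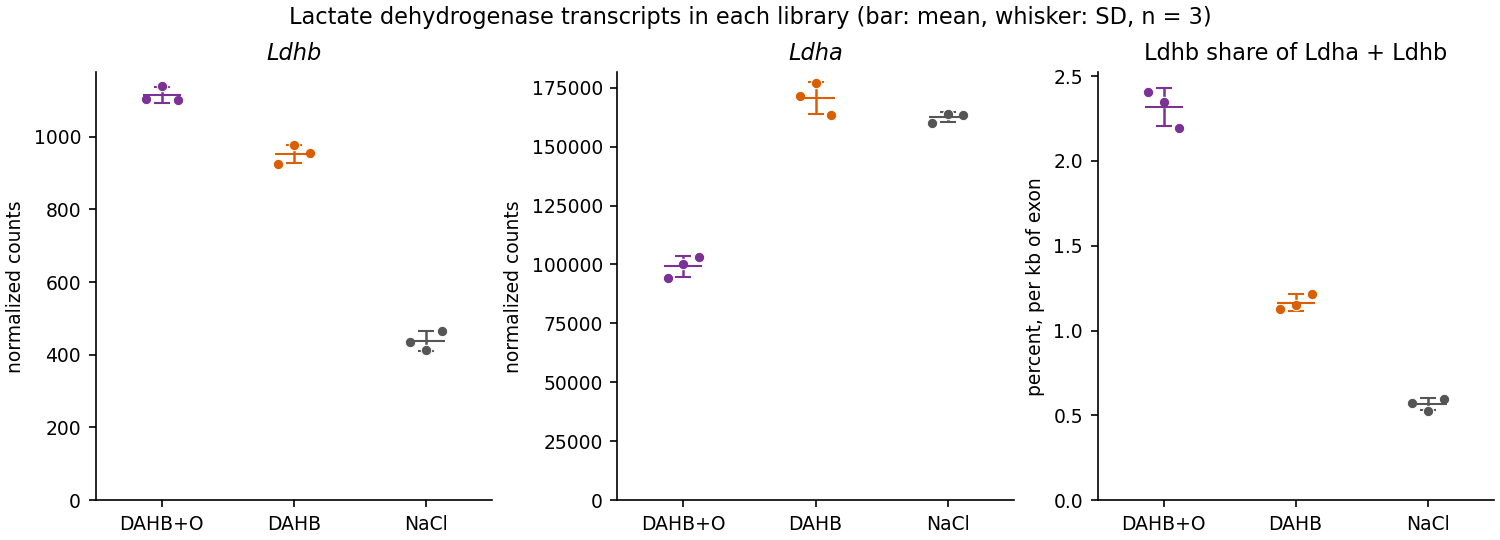
Normalized counts of Ldhb and Ldha and Ldhb's share of their sum per kb of exon in percent, DAHB+O left, DAHB in the middle and NaCl right, with every axis from 0; points are libraries, bars the mean and whiskers the SD (n = 3). The share averaged 2.32% in DAHB+O, 1.16% in DAHB and 0.565% in NaCl, while Ldha was lowest in DAHB+O.

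Ldhd encodes the mitochondrial enzyme that oxidises D-lactate to pyruvate, and lies at chr8:111623785-111630374 on the minus strand. It was the weakest member, with 169.9, 169 and 189 normalized counts in the DAHB+O libraries, 162, 207 and 189.8 in the DAHB libraries and 40.3, 50.1 and 51.6 in the NaCl libraries. The 6 libraries with DAHB stood above all NaCl libraries, and DAHB+O lay within the range of DAHB. Ldhd was 3.88-fold higher in DAHB than in NaCl (log2 1.95, 95% interval 1.67 to 2.24, limma, adjusted p = 3.26e-09), and 6.52% of the tested genes had a larger change in either direction. DAHB+O differed from DAHB by a log2 of -0.08 with an interval of -0.36 to 0.21 (limma, adjusted p = 0.641). The counting error was wide, since NaCl replicate 1 held 39 reads (95% exact Poisson interval 27.7 to 53.3) and DAHB replicate 2 held 214 (186 to 245). Such intervals cover counting error only.

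At its 3′ side Ldhd overlaps Znrf1, a ubiquitin ligase gene on the opposite strand, over 2246 bp, and whether the authors counted by strand is not given in the sources used here. Without strand, reads from the overlap cannot be told apart. Znrf1, named after its values were seen, averaged 1584 ± 50.5 normalized counts in DAHB+O, 1553 ± 42.5 in DAHB and 1634 ± 19.3 in NaCl (SD, n = 3 each). Its log2 difference in DAHB against NaCl was -0.07 (limma, adjusted p = 0.136). Other members overlap noncoding genes that are not in the deposited table. On the opposite strand, Bdh1 overlaps Gm15743 over 1901 bp, and Oxct1 overlaps BC037032 over 1023 bp and Gm15632 over 2807 bp. On the same strand, Slc16a1 overlaps Gm43581 over 2864 bp and Gm43585 over 1403 bp.

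D2hgdh, the mitochondrial dehydrogenase that oxidises D-2-hydroxyglutarate to 2-oxoglutarate, lies at chr1:93824909-93852348 on the plus strand. It had 345, 407 and 349 normalized counts in the DAHB+O libraries, 365, 398 and 421 in the DAHB libraries and 522, 489 and 512 in the NaCl libraries. All 6 libraries with DAHB were below all NaCl libraries, and DAHB+O overlapped DAHB. D2hgdh was 1.29-fold lower in DAHB than in NaCl (log2 -0.36, limma, adjusted p = 7.40e-04) and 1.39-fold lower in DAHB+O than in NaCl (log2 -0.47, limma, adjusted p = 7.32e-05). The log2 difference of DAHB+O from DAHB was -0.11, with an interval of -0.28 to 0.06 (limma, adjusted p = 0.259).

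Bdh1 encodes the mitochondrial dehydrogenase that interconverts 3-hydroxybutyrate and acetoacetate, and lies at chr16:31422280-31458901 on the plus strand. Its normalized counts were 1997, 1975 and 2034 in the DAHB+O libraries, 2025, 1950.2 and 1802 in the DAHB libraries and 2907, 3061 and 3041 in the NaCl libraries. NaCl stood apart above the other libraries, and DAHB+O overlapped DAHB. Bdh1 was 1.56-fold lower in DAHB than in NaCl (log2 -0.64, limma, adjusted p = 6.53e-09). In DAHB+O against DAHB the log2 difference was 0.06 with an interval of -0.04 to 0.16 (limma, adjusted p = 0.292).

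Oxct1 encodes the succinyl-CoA:3-ketoacid CoA transferase that activates acetoacetate, the committed step of ketone body use, and lies at chr15:4026383-4155344 on the plus strand. It had 5177, 5306 and 5348 normalized counts in the DAHB+O libraries, 4563, 4666 and 4343 in the DAHB libraries and 6947, 7028 and 7088 in the NaCl libraries. No groups overlapped, with DAHB lowest and DAHB+O between DAHB and NaCl. Oxct1 was 1.55-fold lower in DAHB than in NaCl (log2 -0.63, limma, adjusted p = 5.29e-10). It was 1.17-fold higher in DAHB+O than in DAHB (log2 0.22, limma, adjusted p = 7.93e-05) and still 1.33-fold below NaCl (log2 -0.41, limma, adjusted p = 6.70e-08).

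Acat1 encodes the mitochondrial acetoacetyl-CoA thiolase that releases acetyl-CoA at the end of ketolysis, and lies at chr9:53580522-53610382 on the minus strand. Its normalized counts were 4724, 5064 and 4983 in the DAHB+O libraries, 4842, 5069 and 4917 in the DAHB libraries and 3224, 3407 and 3200.3 in the NaCl libraries. Every library with DAHB was above every NaCl library, and the values of DAHB+O and DAHB intermingled. Acat1 was 1.51-fold higher in DAHB than in NaCl (log2 0.59, limma, adjusted p = 3.42e-09), opposite in sign to Bdh1 and Oxct1, the enzymes before it in the route. The log2 difference of DAHB+O from DAHB was -0.01, with an interval of -0.09 to 0.08 (limma, adjusted p = 0.908).

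Hadh, the mitochondrial dehydrogenase that oxidises L-3-hydroxyacyl-CoA esters in fatty acid beta-oxidation, lies at chr3:131233419-131272101 on the minus strand. It had 3281, 3373 and 3517 normalized counts in the DAHB+O libraries, 3086, 3441 and 3461 in the DAHB libraries and 2558, 2699.6 and 2628 in the NaCl libraries. NaCl was below all other libraries, and the DAHB+O range overlapped that of DAHB. Hadh was 1.27-fold higher in DAHB than in NaCl (log2 0.34, limma, adjusted p = 1.20e-05) and 1.29-fold higher in DAHB+O than in NaCl (log2 0.37, limma, adjusted p = 5.14e-06). In DAHB+O against DAHB its log2 difference was 0.03 with an interval of -0.08 to 0.13 (limma, adjusted p = 0.639).

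Slc16a1 encodes monocarboxylate transporter MCT1, a proton-linked carrier of lactate, pyruvate and ketone bodies, and lies at chr3:104638668-104658462 on the plus strand. It had 7454, 6737 and 6751 normalized counts in the DAHB+O libraries, 5603, 5612 and 5085 in the DAHB libraries and 7264, 7196 and 7479 in the NaCl libraries. DAHB was below both other groups without overlap, while the range of DAHB+O included most of the NaCl range. Slc16a1 was 1.35-fold lower in DAHB than in NaCl (log2 -0.43, limma, adjusted p = 9.19e-07) and 1.28-fold higher in DAHB+O than in DAHB (log2 0.36, limma, adjusted p = 1.01e-05). Against NaCl, DAHB+O differed by a log2 of -0.07 with an interval of -0.17 to 0.03 (limma, adjusted p = 0.209). That call rested on the scaling and on 1 library: the difference turned to 0.13 and passed under quantile normalization (adjusted p = 0.0206), and it was -0.12 and passed without DAHB+O replicate 1 (adjusted p = 0.0408).

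**Figure D3:**
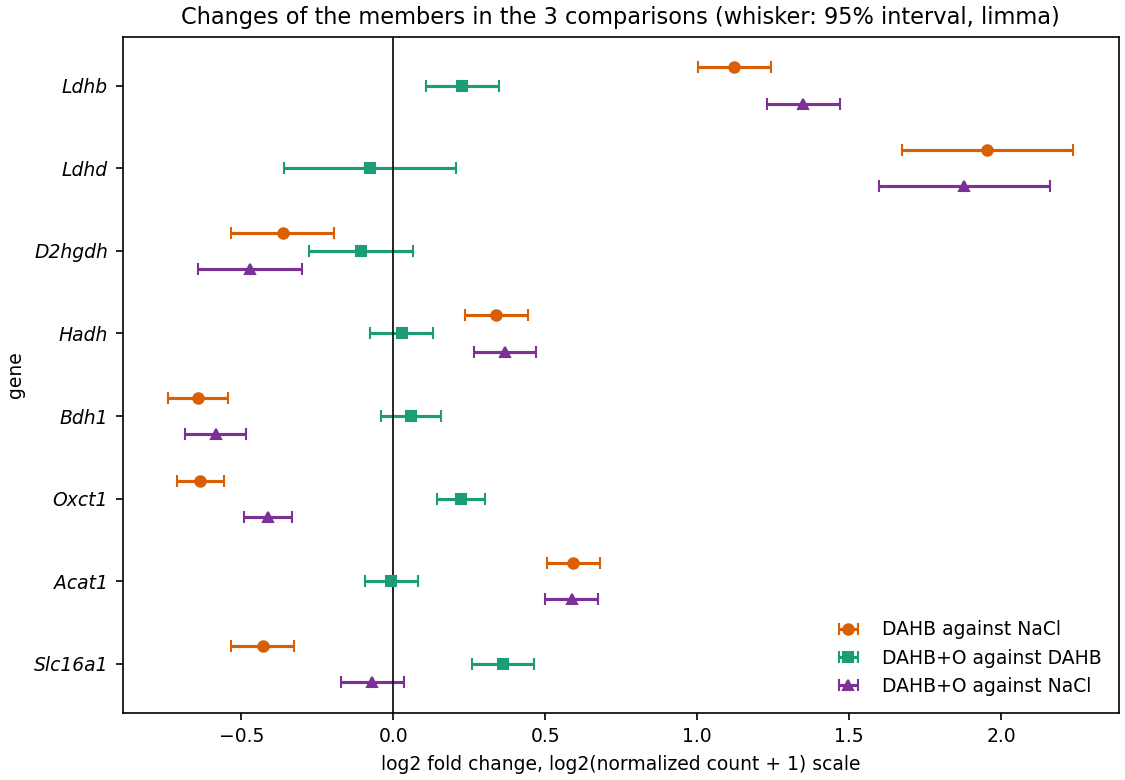
Log2 differences of the 8 genes in the 3 comparisons with 95% intervals from limma on the log2(normalized count + 1) scale, 1 row per gene; circles stand for DAHB against NaCl, squares for DAHB+O against DAHB and triangles for DAHB+O against NaCl. Ldhb and Ldhd lie farthest right in both comparisons with NaCl, at 1.12 and 1.95 in DAHB, and in DAHB+O against DAHB only the intervals of Ldhb, Oxct1 and Slc16a1 leave out 0.

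Levels between genes were set side by side per kb of exon, as the mean normalized count divided by the summed length of all annotated exons. In DAHB+O the order was Slc16a1 at 1577, Oxct1 at 1426, Acat1 at 1310.2, Ldhb at 710.4, Hadh at 681, Bdh1 at 515, D2hgdh at 85.7 and Ldhd at 33.1. The library ranges of Ldhb and Hadh overlapped there, and those of the other neighbours did not. In DAHB the order was Acat1 at 1315, Slc16a1 at 1228, Oxct1 at 1222, Hadh at 669, Ldhb at 607, Bdh1 at 495, D2hgdh at 92.2 and Ldhd at 35. The ranges overlapped between Slc16a1 and Oxct1 and between Hadh and Ldhb. In NaCl the order was Oxct1 at 1897, Slc16a1 at 1652, Acat1 at 872, Bdh1 at 772, Hadh at 528, Ldhb at 279, D2hgdh at 119 and Ldhd at 8.89, with no overlap between neighbours. Oxct1 thus headed the order in NaCl and Acat1 in DAHB, and Ldhb stood below Bdh1 in NaCl and above it in both groups with DAHB. The exons of Ldhd add up to 5328 bp over all its annotated transcripts, so its level per kb is lowered where the longer transcripts are not used. The same limit holds for the other genes, with 4977 bp for Hadh, 4281 bp for D2hgdh, 3310 bp for Ldha and 1570 bp for Ldhb. The order between genes and the height of Ldhb's share per kb thus depend on these lengths, beyond the spread of the libraries.

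**Figure D4:**
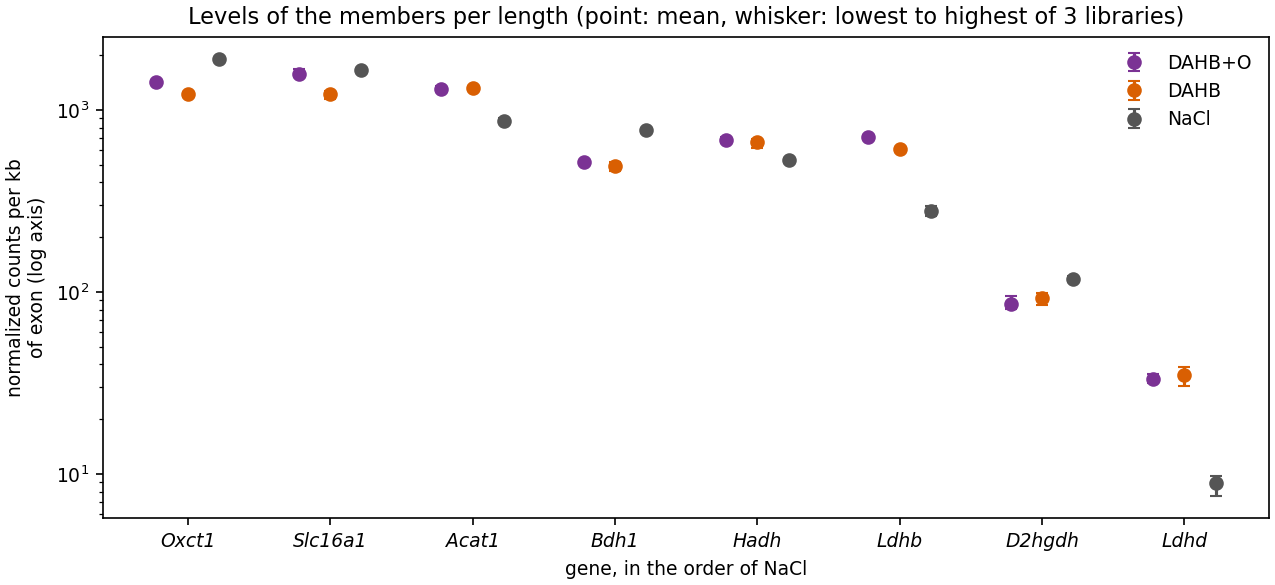
Normalized counts per kb of exon for the 8 genes in DAHB+O, DAHB and NaCl on a log axis; points are means and whiskers run from the lowest to the highest of 3 libraries. Oxct1, Slc16a1 and Acat1 are highest and Ldhd lowest in every group, and Ldhb moves past Bdh1 in the groups with DAHB.

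The pathway lists that follow stand beside the shares of all tested genes given above, 35.5% higher and 38.4% lower in DAHB against NaCl, 33.1% and 29.5% in DAHB+O against DAHB, and 36.5% and 37.7% in DAHB+O against NaCl. Among other hydroxy acid dehydrogenases and glyoxalases, 9 of 13 listed genes were in the table and 8 were tested. In DAHB against NaCl, Grhpr, Glo1 and Hibadh were lower and 0 were higher in limma, also at an unadjusted p under 0.05. DESeq2 called 0 higher and 2 lower, without Hibadh, edgeR and limma-voom each called 2 higher and 2 lower, and quantile normalization gave 2 higher and 1 lower. The Hibadh call did not hold under 10 of 21 alternatives. The median log2 difference was 0.00. In DAHB+O against DAHB 2 were higher and 3 lower (median -0.08), and in DAHB+O against NaCl 2 were higher and 5 lower (median -0.20), or 3 and 3 under quantile normalization. Grhpr, which reduces glyoxylate and hydroxypyruvate, averaged 919.7 ± 34.3 normalized counts in DAHB+O, 1722 ± 67.0 in DAHB and 2576 ± 83.9 in NaCl (SD, n = 3 each). It fell in DAHB against NaCl (log2 -0.58, limma, adjusted p = 2.63e-08) and again in DAHB+O against DAHB (log2 -0.90, limma, adjusted p = 4.89e-10). Mdh1, the cytosolic malate dehydrogenase, was 1.39-fold lower in DAHB+O than in DAHB (log2 -0.48, limma, adjusted p = 2.91e-07). Hagh, the glyoxalase that releases D-lactate, was 1.12-fold higher there (log2 0.17, limma, adjusted p = 0.0412), a call that ended under 7 of 21 alternatives, TMM, quantile normalization and DESeq2 among them, and without DAHB replicate 1 (log2 0.14) or 2 (0.18) or DAHB+O replicate 1 (0.12) or 3 (0.19). Adhfe1, the hydroxyacid-oxoacid transhydrogenase, had 0.893 to 4.61 normalized counts and was too low to test.

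The ketone body synthesis and activation list had 7 of 11 genes in the table, all tested. In DAHB against NaCl 1 was higher and 5 lower (median log2 -0.83), in DAHB+O against DAHB 1 was higher and 5 lower (median -0.39), and in DAHB+O against NaCl 1 was higher and 6 lower (median -0.73). Quantile-normalized values gave 0 and 4, 1 and 5, and 0 and 6. Hmgcs1, Acat2 and Aacs also serve the synthesis of sterols and fatty acids. Hmgcs1, the cytosolic HMG-CoA synthase, averaged 3884 ± 254 normalized counts in DAHB+O, 9583 ± 358 in DAHB and 17056 ± 523 in NaCl (SD, n = 3 each). Acat2, the cytosolic counterpart of Acat1, averaged 735 ± 54.8 in DAHB+O, 1339.9 ± 107 in DAHB and 3949 ± 179 in NaCl. It was 2.95-fold lower in DAHB than in NaCl (log2 -1.56, limma, adjusted p = 1.61e-11), where Acat1 was higher. Aacs, which activates acetoacetate in the cytosol, was 1.92-fold lower in DAHB than in NaCl (log2 -0.94, limma, adjusted p = 3.54e-10). Bdh2, a short-chain dehydrogenase, averaged 48.5 ± 3.83 in DAHB+O, 54.2 ± 5.61 in DAHB and 24.0 ± 9.80 in NaCl. Its log2 difference of 1.23 in DAHB against NaCl (limma, adjusted p = 6.69e-04) did not pass under quantile normalization.

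Of the monocarboxylate carriers, their partners and receptors, 9 of 12 were in the table and 8 were tested. In DAHB against NaCl 4 were higher and 2 lower (median log2 0.20), in DAHB+O against DAHB 2 were higher and 4 lower (median 0.00), and in DAHB+O against NaCl 2 were higher and 4 lower (median -0.33). Quantile-normalized values gave 3 and 3, 2 and 4, and 1 and 4. Slc16a3, the carrier MCT4 that exports lactate, averaged 9128 ± 402 normalized counts in DAHB+O, 24393 ± 1702 in DAHB and 21311 ± 816 in NaCl (SD, n = 3 each). It was 2.67-fold lower in DAHB+O than in DAHB (log2 -1.42, limma, adjusted p = 1.04e-11), while Slc16a1 was higher there. Bsg, the chaperone that carries MCT1 and MCT4 to the surface, averaged 22092 ± 1179.8 in DAHB+O, 52554 ± 820.4 in DAHB and 34446 ± 511 in NaCl. Bsg was 1.53-fold higher in DAHB than in NaCl (log2 0.61, limma, adjusted p = 3.10e-09) and 2.38-fold lower in DAHB+O than in DAHB (log2 -1.25, limma, adjusted p = 4.94e-12). Emb, a further partner of MCT1, was 1.98-fold lower in DAHB+O than in DAHB (log2 -0.99, limma, adjusted p = 6.39e-09). Slc16a7, the carrier MCT2, was much weaker at 37.2 ± 2.82 in DAHB+O, 14.7 ± 0.869 in DAHB and 4.18 ± 0.955 in NaCl, and it was higher in DAHB+O than in DAHB (log2 1.28, limma, adjusted p = 0.00101). Mpc2, a subunit of the mitochondrial pyruvate carrier, followed the order of Slc16a1, with 922 ± 8.99 in DAHB+O, 744 ± 36.7 in DAHB and 991 ± 31.5 in NaCl.

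All 20 genes of the fatty acid beta-oxidation and electron transfer flavoprotein list were tested. In DAHB against NaCl 12 were higher and 6 lower (median log2 0.22), in DAHB+O against DAHB 4 were higher and 9 lower (median -0.10), and in DAHB+O against NaCl 12 were higher and 6 lower (median 0.21). Quantile-normalized values gave 11 and 3, 4 and 8, and 14 and 4. Etfb, a subunit of the flavoprotein that takes electrons from acyl-CoA dehydrogenases, averaged 231 ± 11.5 normalized counts in DAHB+O, 302 ± 16.0 in DAHB and 105 ± 19.9 in NaCl (SD, n = 3 each), and was 2.88-fold higher in DAHB than in NaCl (log2 1.53, limma, adjusted p = 1.58e-08). Hsd17b10, another mitochondrial 3-hydroxyacyl-CoA dehydrogenase, was 1.38-fold higher in DAHB than in NaCl (log2 0.46, limma, adjusted p = 1.99e-06), on the same side as Hadh. Hadha and Hadhb, the subunits of the trifunctional protein for long chains, were 1.12-fold and 1.2-fold lower there (log2 -0.16 and -0.27, limma, adjusted p = 8.97e-04 and 1.95e-04), and both calls ended under quantile normalization. Acadvl and Acadm, which start the oxidation of very long and medium chains, went opposite ways in DAHB against NaCl (log2 0.55 and -0.56, limma, adjusted p = 1.97e-08 and 1.12e-07). Cpt1a, the gate for fatty acid entry into mitochondria, averaged 2183 ± 32.7 in DAHB+O, 1674 ± 60.4 in DAHB and 2106 ± 39.1 in NaCl, lowest in DAHB as Slc16a1 was.

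Of the oxoacid dehydrogenase and propionate list 22 of 23 were in the table and 21 were tested. In DAHB against NaCl 7 were higher and 9 lower (median log2 0.02), in DAHB+O against DAHB 9 were higher and 5 lower (median 0.07), and in DAHB+O against NaCl 11 were higher and 8 lower (median 0.25). Quantile-normalized values gave 9 and 6, 9 and 7, and 11 and 7. Pcca, a subunit of propionyl-CoA carboxylase, averaged 2156 ± 144 normalized counts in DAHB+O, 1544 ± 39.4 in DAHB and 922 ± 37.3 in NaCl (SD, n = 3 each). Dld, the shared lipoamide dehydrogenase of the complexes, was 1.70-fold lower in DAHB than in NaCl (log2 -0.76, limma, adjusted p = 1.04e-10). Pdk1, a kinase that turns off pyruvate dehydrogenase, was 1.75-fold lower in DAHB+O than in DAHB (log2 -0.81, limma, adjusted p = 5.72e-09). Bckdha, of the branched-chain complex, was 1.64-fold lower there (log2 -0.72, limma, adjusted p = 1.35e-05). No list was compared with other genes by a test of its own.

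**Figure D5:**
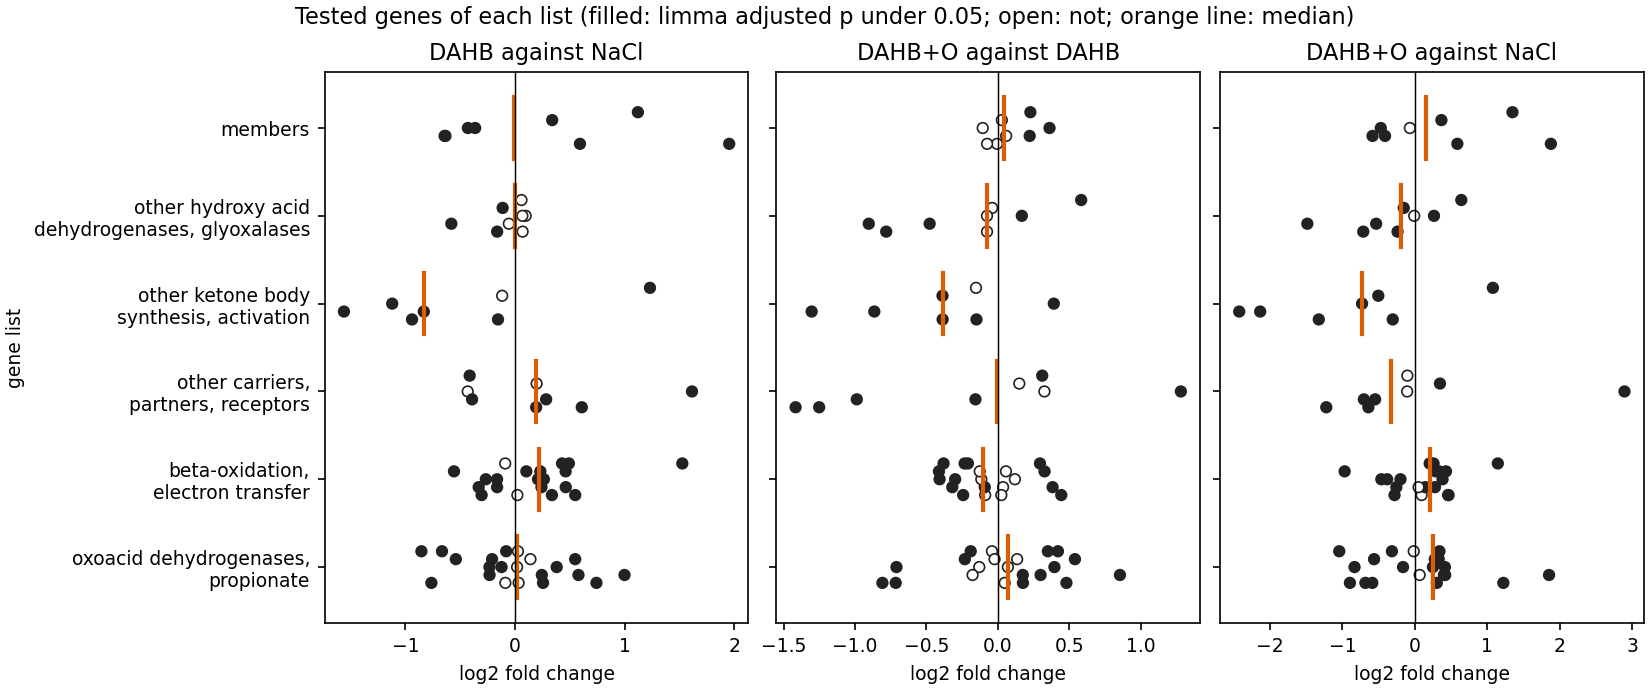
Log2 differences of the tested genes in the 5 pathway lists and of the 8 genes themselves, on the log2(normalized count + 1) scale, in the 3 comparisons; points are genes, filled where the limma adjusted p was under 0.05, and orange lines the list medians. The ketone body synthesis and activation list has the lowest median in each comparison, at -0.83 in DAHB against NaCl, -0.39 in DAHB+O against DAHB and -0.73 in DAHB+O against NaCl.

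For each member the genes whose log2 values were most like it over the 9 libraries were found among 11626 genes with a mean of at least 50. These correlations describe 3 groups of libraries that share cells and treatment, and between 5.69% and 15.0% of the genes compared had an r above 0.9 with a member. Ldhb was most like Wisp1 and Slc7a7 (Pearson r 0.999 for both), Ldhd like H2-Ob and Scpep1 (0.998 for both) and D2hgdh like Sbno1 and RP23-207N15.3 (0.975 and 0.974). Bdh1 was most like Gpx1 and Map2k6 (0.998 and 0.997), Oxct1 like Hmgb1 and Mis18a (0.999 and 0.998) and Acat1 like Pth1r and Dzip1 (0.998 for both). Hadh was most like Slc25a30 and Pparg (0.992 for both), and Slc16a1 like Cwf19l1 and Zpr1 (0.994 and 0.993). Wisp1, whose values most resembled those of Ldhb, averaged 824 normalized counts in DAHB+O, 543 in DAHB and 93.2 in NaCl. Cwf19l1, nearest to Slc16a1, averaged 575 in DAHB+O, 389 in DAHB and 598 in NaCl.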

How the data were processed

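The deposited table gave 1 column per library for 16344 genes by symbol. Its unit is a signal, read from the deposited values as read counts that the authors divided by a size factor per library, and called normalized counts here. Within every library 100.0% of entries equalled a whole number times 1 step, to 1e-06 reads, and that number is the recovered read count. The submitters' processing notes name STAR 2.4, HTSeq 0.9.1, DESeq2, Trim Galore 0.4.5 and Picard with build mm10, without settings. The counting annotation, use of strand and gene filter are not given in the sources analysed here. The cells' RNA was enriched for poly(A), per the labels' protocols.

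Genes averaging 10 or more, 14169 in all, were tested with limma 3.58.1 (R 4.3.3) on log2(value + 1) with a variance trend, 1 mean per group and 9 libraries in 1 fit. P-values are two-sided and adjusted by Benjamini-Hochberg over all genes tested, with calls under 0.05. The fit was also run on simulated counts, as a check of the code only. Those counts had the same dispersion for every gene and far fewer changed genes than were called here. Ldhb's share of Ldha and Ldhb was compared by an exact permutation test. The fit was repeated with a pseudocount of 0.5 or 10, without the filter or with it at 50, on the 6 compared libraries, with a replicate block, with TMM or quantile normalization, with a robust variance, by limma-voom, edgeR 4.0.16 and DESeq2 1.42.0 on recovered reads, and with each library left out. Genes named beyond the 8 were a panel of related enzymes and carriers, up to 2 further genes per list and comparison with the smallest p, and the 2 genes most like each member. Some genes that this rule or the marker lists name are not reported individually. The members and lists were chosen with earlier results of these data known. Coordinates and exon lengths came from GENCODE vM21 and promoters from RefSeq on GRCm38.p6, which held 7 of the 8 members. Reads of Ldhb, D2hgdh and Ldha may be shared with pseudogenes at 95% identity or more over 200 bases. By the same rule, Bdh1 matched its overlapping gene Gm15743 and Oxct1 its overlapping gene BC037032. The 21 rows named only by a number were left out only of the search for genes most like a member. In the tests they were kept under the same filter as other rows. The 1 blank cell was left unused.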

Additional observations from a re-analysis of the deposited data

How the results depend on the processing

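Over 21 alternatives, all 378 values of the 18 called differences of the 8 genes kept their direction and their call. Of the 126 values of the 6 differences that did not pass, 6 changed sign and 2 passed. Both that passed were Slc16a1 in DAHB+O against NaCl, at 0.13 (adjusted p = 0.0206) under quantile normalization and at -0.12 (adjusted p = 0.0408) without DAHB+O replicate 1; the other sign changes were Acat1, Hadh and Ldhd in DAHB+O against DAHB, none past the threshold; the cause was not tested. Ldhd kept its calls, with a log2 difference in DAHB against NaCl of 1.37 at a pseudocount of 10 and 1.85 to 2.05 with a library left out. Counts of genes stayed within 1.5 times of those given, and the differences in Ldhb's share kept their direction. Those were 0.600 points in DAHB against NaCl, 1.15 in DAHB+O against DAHB and 1.75 in DAHB+O against NaCl, or 0.287, 0.557 and 0.844 without the division by length, which changes what the share measures. Without 1 library, 4 genes stayed higher and 4 lower in DAHB against NaCl, 3 and 0 passed in DAHB+O against DAHB, and 3 to 4 were lower in DAHB+O against NaCl. Of the 1716 values of other named genes' called differences, 1667 kept call and direction, 44 lost the call and 5 reversed. Of 356 values that were not called, 23 gained a call and 7 changed sign. The 5 reversals were all under quantile normalization: Glo1 0.0052, Hibadh 0.0596, Pdk3 0.0166 and Ogdh 0.0259 in DAHB against NaCl, and Hibadh 0.0143 in DAHB+O against NaCl; the cause was not tested. Same-numbered libraries of different groups deviated together weakly, at r of 0.0273 to 0.160, against -0.115 to 0.0415 for the other pairs. All 9 of 9 correlated best with their own number. Whether the numbers pair the samples is not given in the sources used here, and the main fit did not use them. With the replicate block, 5129 genes were higher and 5554 lower in DAHB against NaCl, 4826 and 4319 in DAHB+O against DAHB, and 5274 and 5444 in DAHB+O against NaCl. Of the 8 genes 4 and 4, 3 and 0, and 4 and 3 then passed, as without it. Depth limits Ldhd most, at 39 to 214 reads per library.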
